A study of Mus musculus with 6 samples.

Results

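Interferon-stimulated and innate sensing genes were measured in B16F10, a mouse melanoma line that makes melanin, cultured in GSK126 at 10 µM or in the vehicle DMSO. GSK126 inhibits EZH2, the enzyme of Polycomb repressive complex 2 that methylates lysine 27 of histone H3. The gene list was chosen with earlier results of these data known and was matched by symbol. It holds 45 genes, all found among the 54838 genes of the count tables. The 45 genes had reads in these libraries, and 43 of them passed the filter on low counts that left 13601 genes for testing. RNA was sequenced from 3 GSK126 samples and 3 DMSO samples, and the sources used here give no duration of treatment. Whether replicates came from separate cultures is not labelled, so p-values reflect the spread among these libraries, and that spread may be technical. The line is a single established tumour line in culture, without the immune cells that meet such cells in an animal. In bulk RNA, fewer cells with a transcript and less of it per cell cannot be told apart.

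Vertebrate cells detect viral nucleic acid with RNA sensors such as RIG-I and MDA5, which signal through the adaptor MAVS and the kinase TBK1 to interferon regulatory factors. Secreted type I interferon then binds the receptor chains IFNAR1 and IFNAR2, whose kinases JAK1 and TYK2 phosphorylate STAT proteins. With IRF9 these form the complex ISGF3, which binds a promoter element called the ISRE and switches on interferon-stimulated genes, among them direct antiviral proteins and chemokines that attract lymphocytes. Many tumour lines keep part of this programme on without added interferon.

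The total counts per library ran from 14250457 to 14713373 with GSK126 and from 13594939 to 14072673 with DMSO. Counts were compared with the edgeR quasi-likelihood test, with p-values adjusted over all 13601 tested genes and a threshold of 0.05. CPM values below are scaled by edgeR to library size, used for a gene across samples, and FPKM are the authors' values per gene length, used for levels between genes. Of 10 melanocyte markers, 9 were expressed and Ednrb had 0 reads, and Pmel had the highest level of them at 2225 FPKM averaged over all libraries. Of the 9, 4 rose and 1 fell, or 44.4% and 11.1%, against 5.87% and 5.18% of all tested genes. These counts went down to 2 and 0 with single libraries left out. Of 16 leukocyte markers 9 had 0 reads, among them Cd3e, Cd4 and Itgam, and the list summed to between 3.26 and 4.88 CPM with GSK126 and between 2.15 and 3.41 CPM with DMSO. A list of 10 fibroblast and endothelial markers summed to between 17.5 and 23.1 CPM with GSK126 and between 23.4 and 27.1 CPM with DMSO. Most of that sum was 1 gene, Col1a2, with 19.5, 16.3 and 15.4 CPM with GSK126 and 20.65, 22.2 and 22.9 CPM with DMSO. Col1a2 did not pass (adjusted p = 0.0784 by edgeR), and the part of the list in the results was not tested. GSK126 replicate 3 stood apart from the other libraries on the second principal component, which held 18.8% of the variance, and calls on the 45 genes that are gained or lost without it are given beside them.

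Several antiviral effector genes, among them Ifit1, Ifit3 and Rsad2, rose with GSK126, while the 3 most abundant genes per length, Bst2, Isg15 and Ifi27, did not pass the test. Of the 43 tested genes 10 rose and 2 fell, and 31 did not pass. Over all tested genes, 11.1% passed in either direction, 5.87% as higher and 5.18% as lower, against 27.9%, 23.3% and 4.65% of these 43 genes. Because the list was chosen with earlier results of these data known, these shares are a description only. The median log2 fold change of the 43 genes was 0.10, against -0.00048 over all tested genes. Mx1, Ccl5, Oasl1, Rsad2, Ifit3, Ifit1, Oasl2, Usp18, Stat2 and Ifnar1 rose, by 1.24- to 1.94-fold, and Gbp3 and Irf3 fell to 0.775 and 0.790 of the DMSO level. The GSK126 and DMSO libraries did not overlap in 20 of the 43 genes, or 46.5%, against 34.4% of all tested genes. A further 7 genes had an unadjusted p below 0.05 but did not pass after adjustment, namely Irf7, Jak1, Jak2, Ifih1, Tyk2, Mx2 and Gbp2. The share of all tested genes in that position was not taken, so the 7 cannot be set against it.

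Mx1, Rsad2, Ifit1, Ifit3 and Usp18 passed with any of the 6 libraries left out. The count of genes that rose was 5 without any 1 of the DMSO replicates, and 6, 7 and 8 on leaving out replicate 1, 2 or 3 of GSK126, and these 5 were in each count. The count of 8 includes Zbp1, which could be tested there and not with all libraries. It met the filter there only through GSK126 replicates 1 and 2, where it was high, so its call carries no weight. The count of genes that fell was 1 without DMSO replicate 2 or GSK126 replicate 3 and 0 without any 1 of the other libraries. Over all tested genes the count that passed, 1503 with all libraries, also went down in each of these fits. Loss of calls on 5 libraries was therefore not particular to these genes, and the range over all genes is given in the last paragraph.

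**Figure D1:**
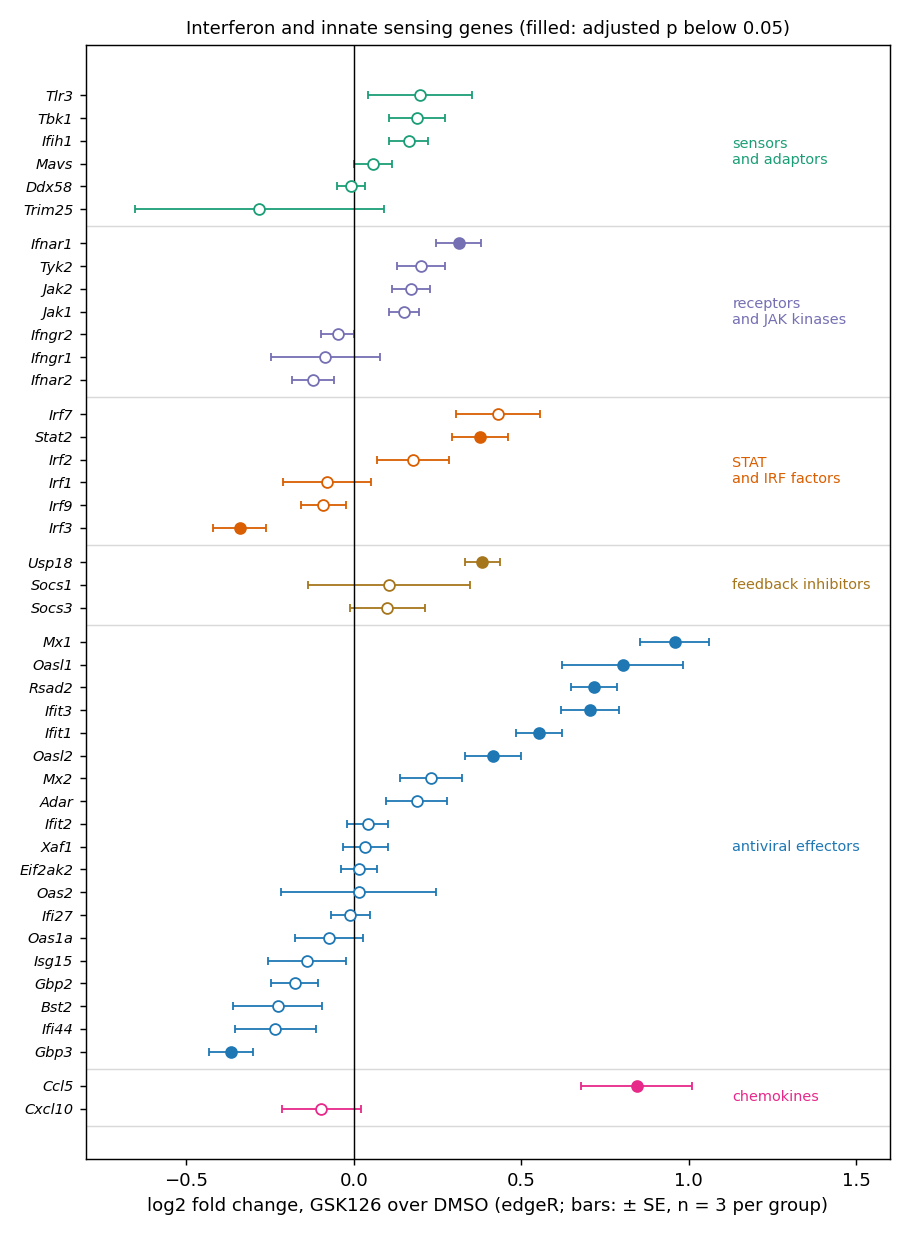
Log2 fold change of GSK126 over DMSO for the 43 tested genes, ordered within role groups, with bars for ± SE (n = 3 per group). Filled points passed the test at an adjusted p below 0.05, 10 of them right of 0 and Irf3 and Gbp3 left of it, and the sensors and adaptors hold no filled point.

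The promoter sequences of 6 effector genes are shown because they carry the ISRE core and differ in how the gene responded. They come from RefSeq (GRCm38.p6), run 5′ to 3′ on the strand of the gene and cover 250 bases before to 50 bases after its start. Capitals mark matches to the ISRE core, searched as TTTC, any 2 bases and TTTC, or on the other strand GAAA, any 2 bases and GAAA, and overlapping matches run together. The first 3 belong to genes that rose, Ifit1 (chr19:34640639-34640938, plus strand), Ifit3 (chr19:34583279-34583578, plus strand) and Rsad2 (chr12:26456403-26456702, minus strand). Isg15 (chr4:156200769-156201068, minus strand) and Bst2 (chr8:71537423-71537722, minus strand) did not pass the test, and Gbp3 (chr3:142559794-142560093, plus strand) fell.
Ifit1: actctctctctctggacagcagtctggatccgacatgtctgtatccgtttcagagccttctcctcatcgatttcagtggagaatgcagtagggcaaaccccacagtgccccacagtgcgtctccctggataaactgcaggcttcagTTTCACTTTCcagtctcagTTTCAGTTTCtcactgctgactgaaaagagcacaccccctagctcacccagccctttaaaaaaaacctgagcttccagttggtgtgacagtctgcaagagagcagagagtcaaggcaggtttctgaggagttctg
Ifit3: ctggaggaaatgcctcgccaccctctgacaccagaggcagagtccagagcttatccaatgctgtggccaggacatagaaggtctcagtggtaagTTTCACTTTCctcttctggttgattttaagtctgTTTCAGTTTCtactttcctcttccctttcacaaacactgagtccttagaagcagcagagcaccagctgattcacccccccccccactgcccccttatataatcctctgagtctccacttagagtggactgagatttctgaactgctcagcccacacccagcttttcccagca
Rsad2: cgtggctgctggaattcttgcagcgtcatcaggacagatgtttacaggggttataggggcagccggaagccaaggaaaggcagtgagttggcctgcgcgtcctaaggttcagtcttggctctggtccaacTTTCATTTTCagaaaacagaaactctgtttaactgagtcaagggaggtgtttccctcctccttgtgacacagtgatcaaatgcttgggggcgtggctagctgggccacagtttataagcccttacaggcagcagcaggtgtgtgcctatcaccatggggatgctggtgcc
Isg15: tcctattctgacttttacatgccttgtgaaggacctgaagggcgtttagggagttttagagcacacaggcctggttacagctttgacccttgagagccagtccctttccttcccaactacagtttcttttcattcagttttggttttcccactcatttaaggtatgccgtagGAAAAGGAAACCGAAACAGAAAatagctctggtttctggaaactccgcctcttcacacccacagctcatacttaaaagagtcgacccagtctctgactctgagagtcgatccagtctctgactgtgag
Bst2: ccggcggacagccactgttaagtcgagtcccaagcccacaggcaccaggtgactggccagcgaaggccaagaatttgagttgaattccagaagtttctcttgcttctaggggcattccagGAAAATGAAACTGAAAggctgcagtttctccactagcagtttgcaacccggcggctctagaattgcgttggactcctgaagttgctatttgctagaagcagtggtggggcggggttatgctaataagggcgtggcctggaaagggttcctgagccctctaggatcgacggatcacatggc
Gbp3: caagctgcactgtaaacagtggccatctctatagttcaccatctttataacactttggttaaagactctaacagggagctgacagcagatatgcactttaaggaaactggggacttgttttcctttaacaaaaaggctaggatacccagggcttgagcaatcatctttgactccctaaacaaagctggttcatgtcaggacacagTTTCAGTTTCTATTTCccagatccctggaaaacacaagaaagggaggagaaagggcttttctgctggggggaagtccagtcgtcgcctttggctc
In Ifit1 the first capital lies 104 bases before the start and the last one 76 bases before it, and in Ifit3 the matches begin 156 and end 113 bases before it. Isg15 holds 3 overlapping matches that begin 78 bases and end 57 bases before its start, more than any other of the 38 genes whose promoter was available.

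Of the 45 genes, 38 had a promoter in that table, and 15 of these held at least 1 match to the ISRE core, or 39.5%, against 3.99% of the 27025 genes in the table. Of the genes that rose, 7 were in the table and 4 held a match, namely Ifit1, Ifit3, Rsad2 and Stat2. Of the 28 genes in the table that were tested and did not pass, 10 held a match, among them Isg15, Bst2, Oas1a, Cxcl10, Ddx58 and Eif2ak2. The antiviral effectors held most matches, with 9 of 15 genes, and none of the 7 receptor and kinase genes held one. The matches of Ifih1, Ddx58 and Eif2ak2 lie after the start. Within the 250 bases before the start, 12 of the 38 genes held the ISRE core, or 31.6%, against 3.46% of all genes in the table. The other element searched was TTCNNNGAA, the GAS core that STAT dimers bind, which reads the same on both strands. It was in 10 of the 38 promoters, or 26.3%, and in 9.55% of all genes in the table, and among the genes that rose Ifnar1 held it. Wholly within the 250 bases before the start, 8 of the 38 held it and 0 of the genes that rose. Usp18, Mx1, Ccl5, Mx2, Oas2, Ifi27 and Zbp1 were not in the table.

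Sensors and adaptors held no gene that passed by edgeR, DESeq2 or limma-voom, and 1, Ifih1, had an unadjusted edgeR p below 0.05. Over all tested genes 11.1% passed by edgeR. Of the 7 genes, 6 were tested and their log2 fold changes ran from -0.28 to 0.20, with a median of 0.11. Ddx58, which encodes RIG-I, was the most abundant by length at 25.4 ± 0.627 FPKM with GSK126 and 25.5 ± 0.799 FPKM with DMSO (SD, n = 3). Its counts gave 284, 274 and 275 CPM with GSK126 and 288, 272 and 277 CPM with DMSO, and the 95% confidence interval of the fold was 0.930 to 1.06. The groups lay on top of each other, and the sign of its log2 fold change, -0.01, turned to 0.01 without DMSO replicate 1. Ifih1, which encodes the long double-stranded RNA sensor MDA5, had 86.2, 88.6 and 95.9 CPM with GSK126 and 80.8, 78.8 and 82.2 CPM with DMSO. Every GSK126 library was above every DMSO library, but the 1.12-fold difference did not pass (adjusted p = 0.118 by edgeR). Mavs, the mitochondrial adaptor of both sensors, averaged 54.0 ± 1.34 CPM with GSK126 and 51.9 ± 1.15 CPM with DMSO (SD, n = 3). Tbk1, the kinase downstream of MAVS, differed 1.14-fold, with overlapping libraries (adjusted p = 0.199 by edgeR). Tlr3, the endosomal receptor for double-stranded RNA, ranged from 29.1 to 42.0 CPM with GSK126 and from 28.3 to 35.3 CPM with DMSO.

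Trim25, the ubiquitin ligase known for activating RIG-I, fell into separate levels that did not follow the treatment. It had 72.6, 68.0 and 142 CPM in GSK126 replicates 1 to 3 and 142, 138 and 63.4 CPM in DMSO replicates 1 to 3. The high level was therefore seen in GSK126 replicate 3 and DMSO replicates 1 and 2, and the low level in the other libraries. Trim21, a related ligase chosen here after its values were seen, had 17.2, 16.3 and 36.4 CPM with GSK126 and 28.6, 30.9 and 14.6 CPM with DMSO, with the high values in the same libraries. With this spread the confidence interval of the Trim25 fold was 0.450 to 1.503. Zbp1, the sensor of left-handed nucleic acid, had 11, 13 and 3 reads with GSK126 and 3, 3 and 3 reads with DMSO and was too low to test. Without GSK126 replicate 3 it could be tested, but met the filter only through the reads of GSK126 replicates 1 and 2. Its call as higher there (log2 fold change 1.87, adjusted p = 0.0391 by edgeR) was favoured by that choice and carries no weight.

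Receptor and kinase genes were present throughout, and Ifnar1 alone among the 7 passed. That is 14.3%, against 11.1% of all tested genes in either direction and 5.87% as higher. Ifnar1, the signalling chain of the type I interferon receptor, had 90.0, 99.0 and 105 CPM with GSK126 and 80.0, 76.0 and 81.1 CPM with DMSO. It rose 1.24-fold (log2 fold change 0.31 with SE 0.07, edgeR adjusted p = 0.0309), a call that was lost in 5 of the 6 fits on 5 libraries, with adjusted p up to 0.110. Without GSK126 replicate 3 its log2 fold change was 0.26 (adjusted p = 0.0523 by edgeR). Ifnar2, the partner chain, had 32.0, 31.0 and 32.6 CPM with GSK126 and 35.3, 34.5 and 34.2 CPM with DMSO, so that every GSK126 library was lower, without passing (adjusted p = 0.259 by edgeR). It shares 315 bp of exons with Gm21970, so part of its reads is uncertain. The log2 ratio of Ifnar1 to Ifnar2 counts was 1.62 ± 0.110 with GSK126 and 1.19 ± 0.0521 with DMSO (SD, n = 3), a ratio picked after its values were seen.

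The kinase genes Jak1, Jak2 and Tyk2 each had all 3 GSK126 libraries above all 3 DMSO libraries, by 1.11-, 1.12- and 1.15-fold, and none passed (adjusted p = 0.0781, 0.104 and 0.122 by edgeR). Libraries did not overlap in 5 of the 7 receptor and kinase genes, 4 higher and 1 lower, against 34.4% of all tested genes. Jak1 was the most abundant gene of this group by length, at 26.5 ± 1.02 FPKM with GSK126 and 23.9 ± 0.382 FPKM with DMSO (SD, n = 3). Ifngr1 and Ifngr2 encode the receptor chains for type II interferon. Ifngr2 averaged 145 ± 7.11 CPM with GSK126 and 150 ± 2.16 CPM with DMSO, with n = 3 and SD as the error. Ifngr1 ranged from 18.8 to 21.4 CPM with GSK126 and from 16.0 to 25.3 CPM with DMSO. The libraries of both genes overlapped between the groups.

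Among the 6 STAT and IRF factors, Stat2 rose and Irf3 fell, or 33.3% against 11.1% of all tested genes. Stat2, the STAT subunit particular to type I and III interferon signalling, had 49.2, 43.8 and 49.4 CPM with GSK126 and 36.9, 33.7 and 39.0 CPM with DMSO. The groups did not overlap and the difference was 1.30-fold (log2 fold change 0.38 with SE 0.08, edgeR adjusted p = 0.0318), with adjusted p up to 0.108 and the call lost in 5 of the 6 fits on 5 libraries. Without GSK126 replicate 3 the log2 fold change was 0.35 (adjusted p = 0.0679 by edgeR). Its partner in ISGF3, Irf9, averaged 67.6 ± 3.91 CPM with GSK126 and 72.0 ± 3.56 CPM with DMSO (SD, n = 3) and did not pass (adjusted p = 0.424 by edgeR). Irf9 shares 123 bp of exons with Rnf31, so part of its reads is uncertain.

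Irf3, the factor activated directly by TBK1, had 28.6, 28.3 and 27.0 CPM with GSK126 and 34.9, 32.9 and 38.3 CPM with DMSO. Every GSK126 library was lower, at 0.790 of the DMSO level (log2 fold change -0.34 with SE 0.08, edgeR adjusted p = 0.0370). No fit on 5 libraries kept that call (adjusted p up to 0.103 by edgeR, and 0.0790 with a log2 fold change of -0.32 without GSK126 replicate 3), and Irf3 shares 88 bp of exons on the opposite strand with Bcl2l12. With the reads of both genes summed, the log2 fold change was -0.24 and did not pass (adjusted p = 0.111 by edgeR). Irf7, the factor that amplifies interferon production, was low, with 8.72, 7.88 and 7.46 CPM with GSK126 and 6.10, 5.41 and 6.37 CPM with DMSO. Its groups did not overlap, but the 1.35-fold difference did not pass (adjusted p = 0.0718 by edgeR), and Irf7 shares 45 bp of exons with the more abundant Phrf1. Irf1 and Irf2, an activator and a repressor of interferon targets, had overlapping libraries, with log2 fold changes of -0.08 and 0.18.

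Among the 3 feedback inhibitors Usp18 rose, or 33.3% against 5.87% of all tested genes as higher. Usp18 removes ISG15 from proteins and blocks signalling at IFNAR2, and it had 103.1, 102.9 and 96.2 CPM with GSK126 and 75.5, 77.1 and 78.9 CPM with DMSO. The groups did not overlap, and the rise was 1.30-fold (log2 fold change 0.38 with SE 0.05, edgeR adjusted p = 0.00631). Socs3, an inhibitor of cytokine receptor kinases, averaged 10.1 ± 0.471 CPM with GSK126 and 9.40 ± 0.949 CPM with DMSO (SD, n = 3), and did not pass. Socs1, the main brake on JAK signalling from interferon receptors, had between 16 and 18 reads with GSK126 and between 12 and 17 reads with DMSO. At that depth the interval of its fold ran from 0.727 to 1.59.

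**Figure D2:**
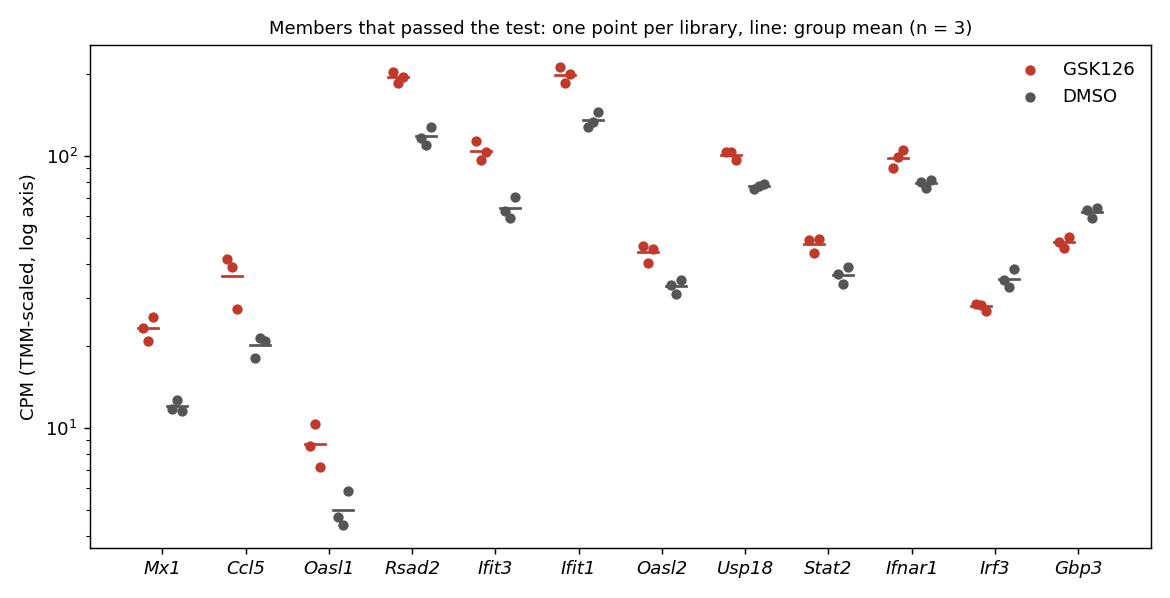
CPM of each library (log axis) for the 12 genes that passed the test, ordered by log2 fold change, with lines for the group means (n = 3 per group). The GSK126 points lie above the DMSO points for the 10 genes from Mx1 to Ifnar1 and below them for Irf3 and Gbp3, and GSK126 replicate 3 is the lowest of its group for Ccl5, at 27.3 CPM.

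The antiviral effectors held most of the changes, with 6 of 19 genes higher, or 31.6% against 5.87% of all tested genes, and 1 lower, or 5.26% against 5.18%. Mx1, a dynamin-like GTPase against influenza virus in strains with an intact gene, had the largest log2 fold change of the 43 tested genes, with 23.3, 20.9 and 25.7 CPM with GSK126 and 11.8, 12.7 and 11.6 CPM with DMSO. The difference was 1.94-fold (log2 fold change 0.96 with SE 0.10, edgeR adjusted p = 0.00235). The C57BL/6 strain, from which B16 melanoma derives, is known to carry an Mx1 allele that gives no working protein. Mx2, its neighbour on chromosome 16, had 32.6, 27.7 and 28.2 CPM with GSK126 and 23.3, 26.0 and 26.2 CPM with DMSO. All GSK126 libraries were higher, but Mx2 did not pass (1.17-fold, adjusted p = 0.162 by edgeR).

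Rsad2, which encodes viperin, an enzyme that makes a chain-terminating nucleotide, had 202, 184 and 194 CPM with GSK126 and 116, 109 and 128 CPM with DMSO. It had the smallest p of the list, with a 1.64-fold rise (log2 fold change 0.72 with SE 0.07, edgeR adjusted p = 0.00156). Cmpk2, a nucleotide kinase gene that is often induced together with Rsad2, had 51.4, 46.9 and 49.6 CPM with GSK126 and 36.2, 29.9 and 36.0 CPM with DMSO. It rose as well, by 1.45-fold (adjusted p = 0.0135 by edgeR).

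Of the Ifit family members, which bind foreign RNA ends and lie side by side on chromosome 19, Ifit1 and Ifit3 rose and Ifit2 did not pass. Ifit1 (GRCm38 chromosome 19, 34640871 to 34650009) had 211, 184 and 200 CPM with GSK126 and 128, 133 and 144 CPM with DMSO (1.47-fold, log2 fold change 0.55 with SE 0.07, edgeR adjusted p = 0.00456). Ifit3 (chromosome 19, 34583531 to 34588731) had 113, 96.3 and 104 CPM with GSK126 and 62.7, 59.3 and 70.3 CPM with DMSO (1.63-fold, log2 fold change 0.70 with SE 0.09, edgeR adjusted p = 0.00444). Both rose, with every GSK126 library above every DMSO library, whereas Ifit2 (chromosome 19, 34550694 to 34576419) had 135, 122 and 141 CPM with GSK126 and 127, 130 and 130 CPM with DMSO. The 95% interval of the Ifit2 fold was 0.930 to 1.14, below that of Ifit1, 1.31 to 1.64. The log2 ratio of Ifit1 to Ifit2 counts was 0.58 ± 0.0730 with GSK126 and 0.06 ± 0.0789 with DMSO (SD, n = 3), with no overlap, a ratio picked after its values were seen. Ifit3b, a near copy of Ifit3 that could take part of its reads, rose 1.61-fold (adjusted p = 0.0112 by edgeR).

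Of the 2'-5' oligoadenylate synthetase family members among the 45, Oasl1 and Oasl2 rose and Oas1a and Oas2 did not pass, and no test compared them with each other. Oas1b, Oas1c and Oas1g, on the list of other interferon-stimulated genes, did not pass either, at 0.852-, 1.16- and 0.979-fold. Oas3, on the same list, was too low to test. The share over all tested genes was 5.87% as higher, and the further Oas genes were named after their values were seen. Oasl1, which restrains Irf7 translation in mice, had 8.59, 10.3 and 7.18 CPM with GSK126 and 4.70, 4.41 and 5.85 CPM with DMSO (1.74-fold, adjusted p = 0.0332 by edgeR). Oasl2 had 46.5, 40.5 and 45.4 CPM with GSK126 and 33.4, 31.0 and 34.9 CPM with DMSO (1.33-fold, adjusted p = 0.0228 by edgeR). The groups did not overlap for either gene, but each call was lost in 5 of the 6 fits on 5 libraries, with adjusted p up to 0.111 for Oasl1 and 0.0896 for Oasl2. Without GSK126 replicate 3 the adjusted p by edgeR was 0.0267 for Oasl1 and 0.0501 for Oasl2. Oas1a, an enzyme that makes the activator of RNase L, averaged 60.8 ± 8.22 CPM with GSK126 and 64.0 ± 2.58 CPM with DMSO (SD, n = 3), and it has close paralogues that could share reads. Oas2 had 80.3, 68.7 and 47.9 CPM in GSK126 replicates 1 to 3 and 77.2, 70.85 and 47.0 CPM in DMSO replicates 1 to 3. The values fell with the replicate number in both groups, and the spread within each group was larger than the difference between them. The cause was not tested. The confidence intervals of the folds were 0.806 to 1.12 for Oas1a and 0.695 to 1.47 for Oas2, and the interval of Oas2 overlapped those of Oasl1, 1.30 to 2.34, and Oasl2, 1.17 to 1.52.

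**Figure D3:**
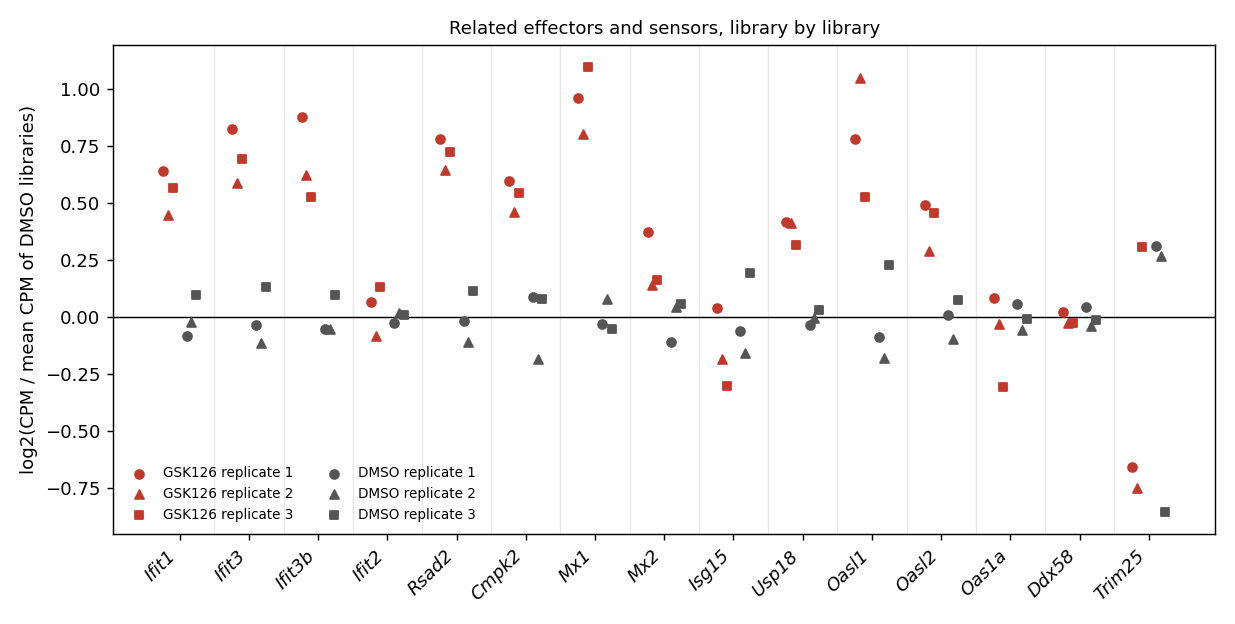
Log2 of CPM over the mean of the DMSO libraries, for 15 effector, inhibitor and sensor genes (including the neighbours Ifit3b and Cmpk2), with 1 symbol per library (n = 3 per group). GSK126 libraries of Ifit1, Ifit3, Ifit3b, Rsad2, Cmpk2, Mx1, Mx2, Usp18, Oasl1 and Oasl2 lie above all DMSO libraries, those of Ifit2, Isg15, Oas1a and Ddx58 mix with them, and Trim25 splits into high and low libraries in both groups.

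The 3 effectors with the highest level per length, Bst2, Isg15 and Ifi27, did not pass, and Ifit1 and Ifit3, next in level, rose. Bst2, or tetherin, which holds budding virions at the cell surface, was the highest of the 45 genes per length, at 253 ± 48.9 FPKM with GSK126 and 295 ± 19.97 FPKM with DMSO (SD, n = 3). It had 321, 312 and 223 CPM with GSK126 and 316, 326 and 362 CPM with DMSO, the lowest value being that of GSK126 replicate 3 (adjusted p = 0.320 by edgeR). Isg15, the ubiquitin-like modifier, came next in level, with 88.4, 75.7 and 69.7 CPM with GSK126 and 82.4, 77.2 and 98.2 CPM with DMSO. The groups overlapped, and the interval of its fold ran from 0.751 to 1.09, which lies below the fold of each of the 10 genes that rose. Ifi27, a mitochondrial protein gene, averaged 252 ± 9.40 CPM with GSK126 and 254 ± 16.9 CPM with DMSO (SD, n = 3). Effectors of lower level that did not pass include Eif2ak2, Adar, Xaf1 and Ifi44. Eif2ak2, which encodes the RNA-activated kinase PKR, averaged 147 ± 4.73 CPM with GSK126 and 145 ± 7.78 CPM with DMSO. Adar, the double-stranded RNA editing enzyme, ranged from 177 to 195 CPM with GSK126 and from 141 to 177 CPM with DMSO, and shares 1365 bp of exons with Chrnb2. Xaf1, an inducer of apoptosis, differed 1.02-fold. Ifi44 averaged 12.8 ± 1.41 CPM with GSK126 and 15.1 ± 1.55 CPM with DMSO (SD, n = 3).

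Guanylate-binding proteins are GTPases that attack vacuoles of intracellular pathogens. Of 9 such genes, Gbp2 and Gbp3 among the 45 and 7 on the list of other interferon-stimulated genes, 7 were tested, and Gbp3 fell, Gbp4 and Gbp7 rose and 4 did not pass. The shares over all tested genes were 5.87% as higher and 5.18% as lower. The further Gbp genes were named after their values were seen, so these counts are a description only. Gbp3 had 48.3, 45.8 and 50.3 CPM with GSK126 and 63.3, 59.0 and 64.2 CPM with DMSO (log2 fold change -0.37 with SE 0.07, edgeR adjusted p = 0.0160), and the call was lost in 4 of the 6 fits on 5 libraries, with adjusted p up to 0.0658. Gbp2 was lower in every GSK126 library without passing, with 34.5, 33.9 and 32.7 CPM with GSK126 and 37.2, 36.5 and 40.5 CPM with DMSO (adjusted p = 0.157 by edgeR). Gbp7 had 90.2, 77.4 and 94.9 CPM with GSK126 and 68.9, 65.7 and 68.4 CPM with DMSO (1.29-fold, adjusted p = 0.0307 by edgeR). Gbp4 had 4.05, 3.26 and 5.30 CPM with GSK126 and 1.54, 1.35 and 2.44 CPM with DMSO (2.36-fold, adjusted p = 0.0364 by edgeR). Both calls were lost in 5 of the 6 fits on 5 libraries, with adjusted p up to 0.106 for Gbp7 and 0.123 for Gbp4, and Gbp4 shares 60 bp of exons with Gbp9. Without GSK126 replicate 3 the adjusted p by edgeR was 0.0559 for Gbp7 and 0.0830 for Gbp4. Gbp5 and Gbp9 had every GSK126 library above every DMSO library without passing, at 1.66- and 1.46-fold (adjusted p = 0.0513 and 0.0566 by edgeR), and Gbp6 libraries overlapped at 1.37-fold. The family is known for near-identical copies, so reads could be shared among its members.

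The chemokine genes gave a different result each. Ccl5, a chemokine that attracts T cells and monocytes, had 41.9, 39.2 and 27.3 CPM with GSK126 and 18.0, 21.4 and 20.9 CPM with DMSO. The groups did not overlap, and the rise was 1.79-fold (log2 fold change 0.84 with SE 0.17, edgeR adjusted p = 0.0214). The call was lost in 5 of the 6 fits on 5 libraries, with adjusted p up to 0.0826, but held without GSK126 replicate 3. Cxcl10, a ligand of CXCR3, had 89.6, 81.6 and 64.9 CPM with GSK126 and 77.98, 85.2 and 89.4 CPM with DMSO and did not pass (adjusted p = 0.638 by edgeR). Its log2 fold change was -0.10 over all libraries and 0.02 without GSK126 replicate 3. Cxcl9, another ligand of CXCR3 and a classical target of type II interferon, had 5, 3 and 3 reads with GSK126 and 5, 6 and 0 reads with DMSO, too few to test.

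Levels per length spanned from 0.0796 FPKM for Cxcl9 to 274 FPKM for Bst2, averaged over all libraries. Of the 45 genes 19 had at least 10 FPKM and 4 were below 1 FPKM, namely Irf7, Socs1, Zbp1 and Cxcl9. Bst2, Isg15, Ifi27, Ifit1 and Ifit3 led the order, and Bst2 was higher than 99.4% of all genes with reads. Isg15 and Ifi27 stood at 108 and 98.7 FPKM, a gap smaller than the spread between libraries of Isg15, which was 13.1 FPKM with GSK126 and 13.9 FPKM with DMSO (SD, n = 3). Ddx58, Jak1 and Eif2ak2 followed each other between 24.9 and 25.5 FPKM and do not differ beyond their spread. The median DMSO level was 11.4 FPKM for the 10 genes that rose and 8.68 FPKM for the 31 that did not pass. Across the 43 tested genes the Spearman correlation of DMSO level and log2 fold change was -0.236, a description over genes that share the same 6 libraries. Antiviral effectors had a median DMSO level of 15.3 FPKM, sensors and adaptors 7.56 FPKM, receptors and kinases 7.42 FPKM, and STAT and IRF factors 3.56 FPKM.

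**Figure D4:**
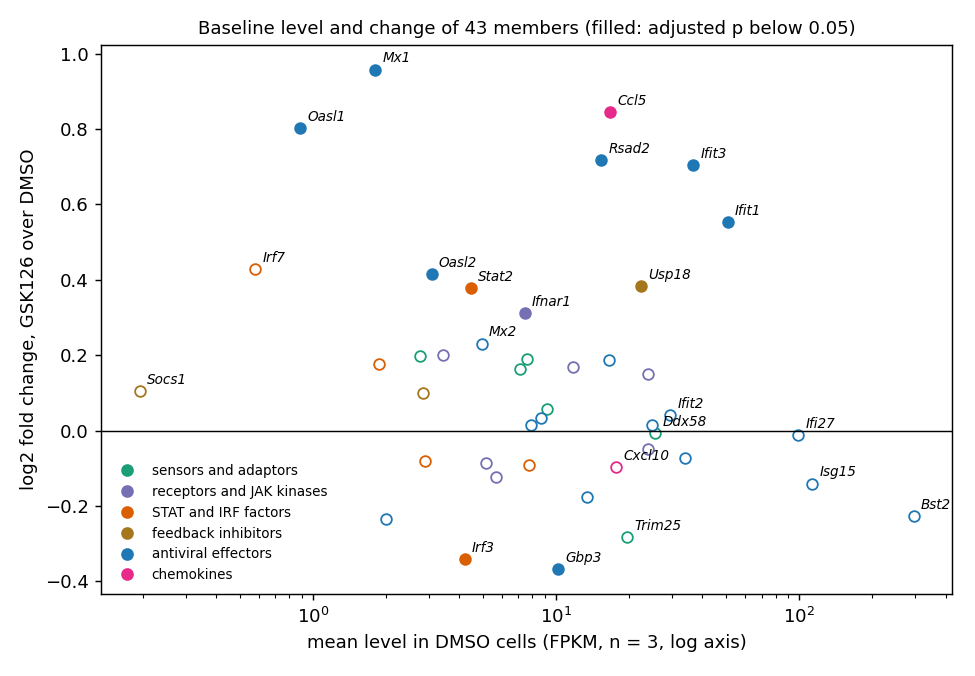
Mean DMSO level in FPKM (log axis, n = 3) against log2 fold change of GSK126 over DMSO for the 43 tested genes, coloured by role and filled where the adjusted p was below 0.05. The genes that rose sit between 0.889 FPKM (Oasl1) and 50.7 FPKM (Ifit1), and Ifi27, Isg15 and Bst2, which are more abundant, lie at or below 0.

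No interferon ligand could be tested. Of 21 ligand genes 17 had 0 reads in all libraries, and the whole list had 3 reads with GSK126 and 6 reads with DMSO. Ifnb1, the interferon that most cells make first, had 1, 0 and 0 reads with GSK126 and 0, 0 and 2 reads with DMSO. A level of interferon transcripts below a few reads per library was therefore not detectable at this depth.

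Other pathway genes, taken from lists set beside these 45 genes, are given by their counts and the genes with the smallest p. Of 26 other sensing genes 22 were tested, with 1 higher and 1 lower, or 9.09% against 11.1% of all tested genes, and a median log2 fold change of 0.02. Myd88, the adaptor of most Toll-like receptors, averaged 16.2 ± 0.178 CPM with GSK126 and 12.6 ± 0.742 CPM with DMSO (SD, n = 3, 1.28-fold, adjusted p = 0.0385 by edgeR). No fit on 5 libraries kept it, with adjusted p up to 0.119 by edgeR, and Myd88 shares 290 bp of exons with Acaa1a. G3bp1, a stress granule protein gene that aids RNA sensing, had 434, 425 and 417 CPM with GSK126 and 534, 547 and 525 CPM with DMSO. It fell to 0.795 of the DMSO level (adjusted p = 0.00342 by edgeR) and passed with any 1 library left out.

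Of 31 other JAK-STAT and IRF genes 27 were tested and 3 passed, each higher, or 11.1%. Over all tested genes 5.87% passed as higher and 11.1% in either direction. The median log2 fold change of the 27 was 0.07, and 1 or 2 genes passed with single libraries left out. Stat3, the STAT of interleukin-6 signalling, had 88.9, 88.4 and 89.5 CPM with GSK126 and 55.9, 56.5 and 55.1 CPM with DMSO (1.59-fold, adjusted p = 0.000639 by edgeR). Its 72 bp of exons shared with Stat5a leave part of its reads uncertain. Pias3, an inhibitor of STAT3, rose 1.28-fold (adjusted p = 0.0479 by edgeR), a call lost when any 1 library was left out, at adjusted p up to 0.142.

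Of 71 other interferon-stimulated genes 56 were tested and 11 passed, each higher, or 19.6% against 5.87% of all tested genes. The count was 2 without DMSO replicate 1 or GSK126 replicate 1, 4 without GSK126 replicate 3, and 5, 6 and 7 without DMSO replicate 2, DMSO replicate 3 and GSK126 replicate 2. The median log2 fold change of the 56 was 0.10. Besides Ifit3b and Cmpk2, the smallest p values belonged to Znfx1 and Iigp1. Znfx1, an RNA helicase gene, had 148, 138 and 145 CPM with GSK126 and 112, 105 and 107 CPM with DMSO (1.33-fold, adjusted p = 0.00384 by edgeR) and passed with any 1 library left out. Iigp1, an immunity-related GTPase gene, was lower in level, with 5.72, 4.21 and 5.09 CPM with GSK126 and 2.35, 2.77 and 2.15 CPM with DMSO (2.06-fold, adjusted p = 0.0167 by edgeR, lost in 3 of the 6 fits on 5 libraries, up to 0.0683). The calls of Ifit3b and Cmpk2 were each lost with 1 library left out, at adjusted p of 0.0539 and 0.0512. Znfx1 shares 82 bp of exons with Zfas1, so part of its reads is uncertain.

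**Figure D5:**
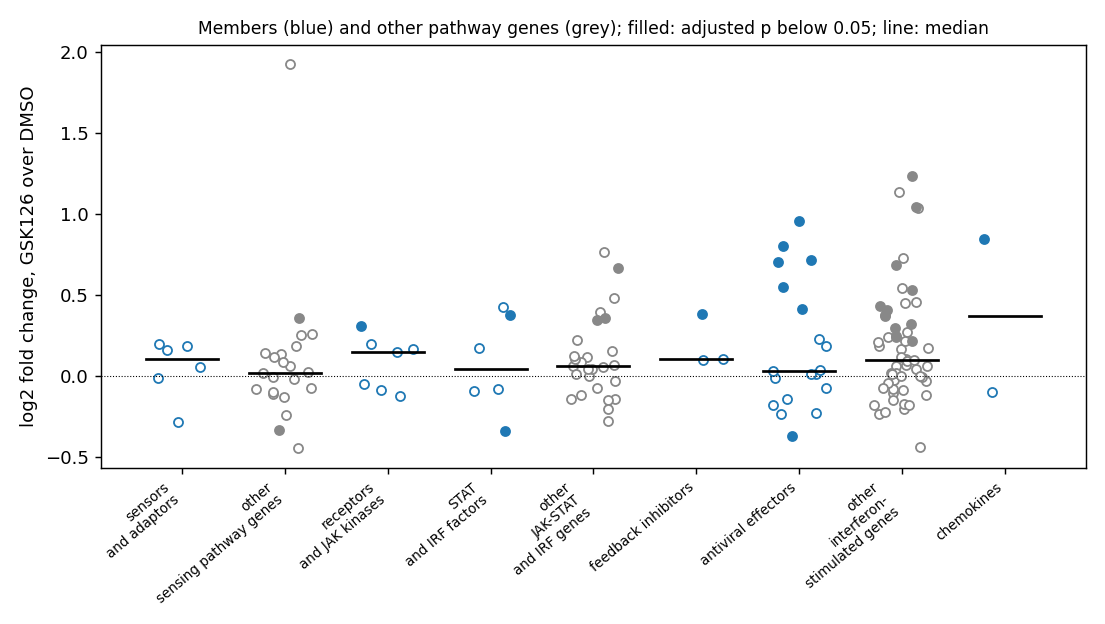
Log2 fold change of GSK126 over DMSO for the tested genes of the 6 role groups (blue) and of 3 lists of other pathway genes (grey), with a line at each median and filled points at an adjusted p below 0.05. The antiviral effectors hold 7 filled points with a median of 0.03, and the other interferon-stimulated genes hold 11 with a median of 0.10.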

How the data were processed

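RNA-seq libraries of 3 GSK126 and 3 DMSO samples were grouped by their treatment label. The submitters' processing notes name CASAVA 1.8, HISAT2 and the builds GRCm38.p4 and mm10, while the counting tool, strand setting and annotation were not stated in the sources at hand. The authors deposited whole-number read counts per gene and a table of FPKM, which followed count over library total within a ratio of 1.000048 for 12035 genes. Of several identifiers with 1 symbol, that with the most reads carried it. Mb21d1 was matched as Cgas.

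The main test was edgeR 4.0.16 in R 4.3.3 (filterByExpr, TMM, glmQLFit and glmQLFTest with treatment as the sole term), Benjamini-Hochberg adjusted over all tested genes. Alternatives were RLE scaling, DESeq2 1.42.0, limma-voom (limma 3.58.1), other filters, log2 FPKM with a pseudocount of 0.1 or 1 in limma, the replicate number as a block and each library left out. Summing genes that share exons (GENCODE M21), where the partner had at least 10% as many reads, was chosen after seeing the data. On simulated counts for this comparison (13469 genes tested), 51 of 100 genes set to change 1.5-fold were found by edgeR, 88 of 100 set to change 2-fold, and 15 unchanged genes were called. The genes set to change were drawn from genes with many reads, so these rates do not extend to genes with few, such as Socs1. Replicates differed beyond counting noise, with a chi-square of 7.61 to 14.3 per degree of freedom.

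The genes and lists were chosen with earlier results of these data known. Named genes are those that passed, those with groups that did not overlap and at least 5 CPM on average, the 2 highest per length and 2 lowest p-values of every role, and up to 4 passed genes of each further list. Other genes of the 45 are added in brief, and Trim21 and the further Gbp and Oas genes were named after their values were seen. A further gene that passed in the JAK-STAT and IRF list is not reported here.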

Additional observations from a re-analysis of the deposited data

How the results depend on the processing

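RLE scaling, DESeq2, limma-voom and a filter of at least 5 CPM called the same 10 genes higher and 2 lower. FPKM with a pseudocount of 0.1 or 1, and counts summed over genes that share exons (chosen after seeing the data), called the same 10 higher and 1 lower, without Irf3. Without a low-count filter 899 of all genes passed, against 1503, and 7 of the 45 (6 higher, 1 lower). With unfiltered FPKM 889 passed, and 6 of the 45 (5 higher, 1 lower). Both adjust over 23352 genes in place of 13601. With single libraries left out, on fewer samples, the counts ranged from 529 to 1243 over all genes, and among the 45 from 5 to 9 in all, from 5 to 8 higher and from 0 to 1 lower. With the replicate block 408 genes passed, and 5 of the 45, with 5 higher and 0 lower. The labels do not say that the numbers pair samples: deviations of same-numbered libraries correlated at 0.0149, 0.0145 and -0.0611, and 0 of 6 libraries correlated best with their own number. Mx1, Rsad2, Ifit1, Ifit3 and Usp18 passed under each of these settings. The log2 fold change of Cxcl10 ranged from -0.201 to 0.0235 with single libraries left out, above 0 without GSK126 replicate 3. That of Ddx58 ranged from -0.0268 to 0.0144, above 0 without DMSO replicate 1 and, at 0.000433, without GSK126 replicate 2. The cause was not tested. Of the 10 most abundant genes by FPKM, 6 were among the first 10 by CPM, which is not scaled by length. Depth limits Socs1, Zbp1 and Cxcl9, which had under 20 reads per library.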
